A study of Homo sapiens with 6 samples.

Results

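The genes described here are 9 regulators of mRNA decay: ZFP36, ZFP36L1, ZFP36L2, ZC3H12A, ARID5A, BTG1, BTG3, TOB1 and TOB2. They were chosen by name, and all 9 of these were found among the 60448 genes of both deposited comparisons and had been tested in both. The assay was 4sU-seq: cells take up a uridine analogue, and the RNA made in that time is collected and sequenced. The cells were RPE1, a telomerase-immortalised human cell line of retinal pigment epithelial origin. The 6 libraries formed 3 groups of 2: wild type cells without doxycycline and without hydrogen peroxide (H2O2), wild type cells without doxycycline after H2O2, and NuMA (TDIF) knockdown cells given doxycycline, after H2O2. The drug and the knockdown therefore cannot be told apart, and doses and times are not given in the labels. There was no untreated knockdown group, so a difference present before H2O2 cannot be told apart from a changed response to it. NuMA, encoded by NUMA1, is a nuclear protein best known for organising the mitotic spindle. The labels do not say whether the libraries of a group were grown separately, so the spread behind the p-values may be technical only.

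An mRNA is usually degraded after its poly(A) tail has been shortened by the CCR4-NOT complex. Proteins of the ZFP36 family bind AU-rich elements in the 3' untranslated region (3' UTR) through a pair of CCCH zinc fingers and bring CCR4-NOT to the message, so that many cytokine and growth factor mRNAs are short-lived. ZC3H12A encodes Regnase-1, an endonuclease that cuts mRNAs at stem-loops, and ARID5A encodes a protein that, in mouse cells, opposes Regnase-1 and stabilises Il6 and Stat3 mRNA. BTG and TOB proteins bind the deadenylase subunits CNOT7 and CNOT8, and TOB proteins also bind the poly(A)-binding protein. Several of these genes are themselves switched on quickly by growth factors and stress, ZFP36 above all.

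The files pool the 2 libraries of a group into 1 value per gene, so no single library's value can be shown. Recovered mean counts per library summed to 14446998 (untreated), 17655731.5 (H2O2-treated wild type) and 16302074 (knockdown). Mean counts below are not scaled by these totals, and the deposited changes are log2 ratios of the mean counts plus 1. Changes below are log2 differences from the median gene (among genes of 50 or more mean counts) ± a standard error derived from the deposited p-value. In the authors' deposited table that median was 0.29 for H2O2 and -0.29 for the knockdown. A gene is called higher or lower if both tests, the deposited one and the one after centring, gave an adjusted p below 0.05 with 1 sign. Levels are TPM, the mean count divided by gene length and scaled to 1 total in every group. NUMA1 had mean counts of 1168, 1571 and 933.5 in untreated, H2O2-treated and H2O2-treated knockdown cells. It fell in the knockdown by 0.46 ± 0.12, a 1.38-fold decrease (adjusted p = 0.00112). Its mature mRNA and protein were not measured here. Of 8 markers of differentiated pigment epithelium, RPE65, RLBP1, TYR and TYRP1 had under 10 mean counts in every group. Of the 5 tested after H2O2, BEST1 was called higher (4.5 to 63 mean counts) and OTX2 lower (387 to 166.5), and MITF, at 674 mean counts in untreated cells, was not called. Of 5 genes expected in RPE1, KRT8, KRT18 and VIM were abundant, and KRT7 and CDH2 stood at 24.1 and 102 TPM in untreated cells. KRT8 (1.04) and CDH2 (0.72) were called higher after H2O2. In the knockdown VIM (1.02) was called higher, and KRT8 (-0.37) and CDH2 (-0.57) lower. All 5 immune markers were under 10 mean counts. The summed level of 8 fibroblast markers was 326, 613 and 515 TPM in the 3 groups. THY1 alone, not called in either comparison, gave 248, 300 and 289 TPM of these. LUM was near 0, and PDGFRA, COL1A2 and DCN stood at 1.91 TPM or less in every group. After H2O2, 2 of 7 tested, PDGFRB and COL1A1, were called higher. In the knockdown 2 of 7, PDGFRB (-0.44) and FAP (-1.49), were called lower. Shares of all tested genes called were 16.6% higher and 9.6% lower after H2O2, and 6.81% and 14.5% in the knockdown. The part of these markers in the results was not tested.

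After H2O2, ZFP36 rose most among the 9 genes, and ARID5A, TOB1 and ZC3H12A rose with it, 4 of 9 genes called higher. Over all genes, 16.6% of 18522 were called higher. None of the 9 was called lower, where 9.60% of all genes were; by the centred test 2, ZFP36L2 and BTG1, were lower at an unadjusted p under 0.05, and by the authors' deposited test 0. In the knockdown the 9 genes split: ARID5A, BTG1 and ZFP36 were called higher and ZFP36L2, TOB2, ZFP36L1, TOB1 and ZC3H12A were called lower. Of 18266 genes, 6.81% were called higher and 14.5% lower in that comparison. BTG3 was called in neither comparison. The median change of the 9 was 0.39 after H2O2 and -0.37 in the knockdown, where over all tested genes it was 0.05 and 0.01. Both comparisons use the H2O2-treated wild type libraries, so the values are given side by side with no measure of likeness between them.

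**Figure D1:**
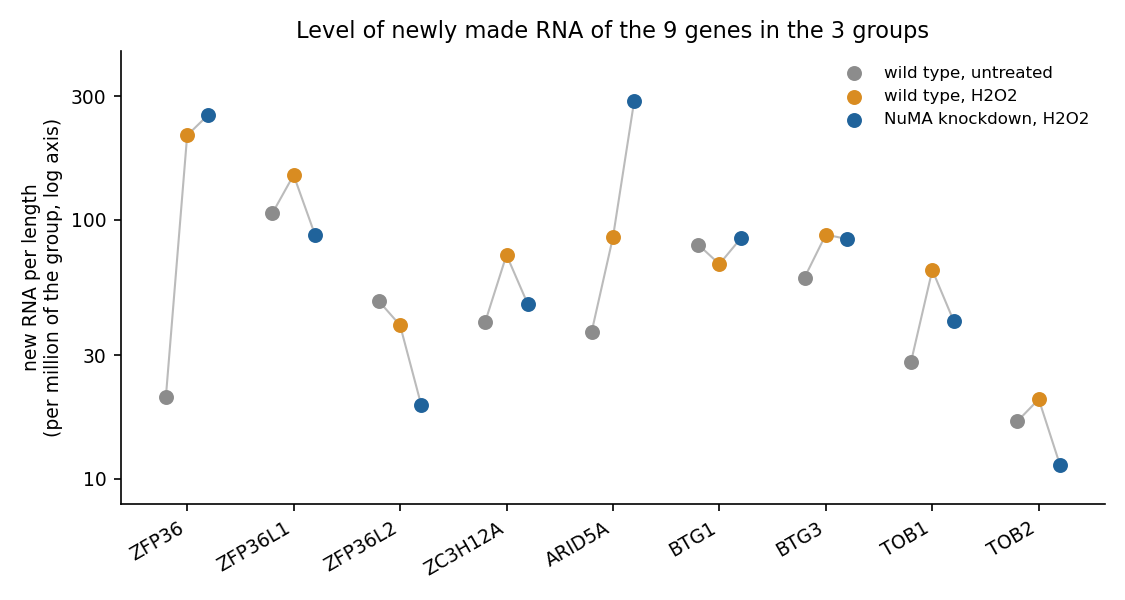
Level of newly made RNA of each gene in the 3 groups (y axis, TPM, log axis; 1 point per group, pooled over 2 libraries, no error shown). ZFP36 stands at 20.7 in untreated cells against 212 and 255 after H2O2, and ARID5A at 37, 85.7 and 289.

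The order of the genes by level changed between groups. Per length, in untreated cells, ZFP36L1 had the highest level of the 9 (106 TPM, above 92.2% of tested genes), and TOB2 the lowest (16.7). ZFP36 was the second lowest at 20.7 TPM, a level not separated from that of TOB2 by more than 2 standard errors. After H2O2 ZFP36 was the highest of the 9 at 212 TPM, above 96% of tested genes and above ZFP36L1 at 149. In the knockdown ARID5A was first at 289 TPM and ZFP36 second at 255, and the next gene, ZFP36L1, stood at 87.8. The error of a level was not measured but taken as that of the gene's change divided by the square root of 2. For both wild type groups it came from the H2O2 comparison, where the errors of the 9 genes were larger than in the knockdown comparison. Which genes are separated depends on this choice. Neighbours in the order that were not separated by 2 standard errors were BTG3, ZFP36L2, ZC3H12A, ARID5A and TOB1 in untreated cells, BTG3, ARID5A, ZC3H12A, BTG1 and TOB1 after H2O2, and, in the knockdown, ZFP36L1, BTG1 and BTG3, and likewise ZC3H12A and TOB1. These lengths are mean transcript lengths, so levels of different genes depend on which transcripts the cells make.

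ZFP36, which encodes tristetraprolin, lies on chromosome 19 from 39406813 to 39409412 (GRCh38, plus strand, protein coding) and is a short gene of 2600 bases. Its mean counts were 300 in untreated, 3372 in H2O2-treated and 3978 in knockdown cells, so untreated cells stood far below both treated groups. It rose by 3.20 ± 0.19 after H2O2, a 9.16-fold change relative to the median gene (adjusted p = 6.99e-58), and 66 of 11602 genes with at least 50 mean counts rose more. In the knockdown it was higher than in H2O2-treated wild type cells, by 0.53 ± 0.08 (adjusted p = 2.77e-09). That difference was 0.24 without centring, in the authors' deposited table (adjusted p = 0.0139), and 0.25 relative to genes of similar gene span. Its size depends on the scale more than that of the change after H2O2.

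ZFP36L1, on chromosome 14 from 68787660 to 68796253 (minus strand), encodes a paralogue with the same kind of zinc fingers. Its mean counts were 2504, 3864.5 and 2219.5 in untreated, H2O2-treated and knockdown cells, highest in H2O2-treated wild type cells. Its change after H2O2 was 0.33 ± 0.20 (adjusted p = 0.191), with a 95% interval from -0.05 to 0.72, and it was not called. The authors' deposited table had 0.63 with an adjusted p of 0.00602, and relative to genes of similar span the change was 0.67 (adjusted p = 0.00349), so this call rests on the scale. In the knockdown ZFP36L1 fell by 0.51 ± 0.09, a 1.42-fold decrease (adjusted p = 7.65e-08).

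ZFP36L2, the remaining family member, lies on chromosome 2 from 43222402 to 43226609 (minus strand). Its mean counts were 1624, 1439.5 and 688 in untreated, H2O2-treated and knockdown cells, so the knockdown was the lowest group. The change after H2O2 was -0.46 ± 0.21 (adjusted p = 0.068), which missed the threshold, and -0.17 in the authors' deposited table. In the knockdown ZFP36L2 fell by 0.77 ± 0.11, a 1.71-fold decrease (adjusted p = 2.25e-10), and 1003 of 11556 genes fell further.

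The paralogues thus differed in their response. Differences between 2 genes of 1 comparison do not depend on the centring, and the pairs below were chosen after their values were seen. After H2O2 the change of ZFP36 exceeded that of ZFP36L1 by 2.86 ± 0.28 (95% interval 2.32 to 3.40) and that of ZFP36L2 by 3.66 ± 0.28. ZFP36L1 exceeded ZFP36L2 by 0.80 ± 0.28 (0.24 to 1.36). In the knockdown ZFP36 exceeded ZFP36L1 by 1.04 ± 0.12 and ZFP36L2 by 1.30 ± 0.14, whereas the difference between ZFP36L1 and ZFP36L2 was 0.26 ± 0.14, with an interval from -0.02 to 0.55. The make-up of the family differed between groups. Per length, ZFP36 gave 11.8% of the new RNA of the 3 paralogues in untreated cells, 52.9% after H2O2 and 70.5% in the knockdown, and ZFP36L1 gave 60.6%, 37.3% and 24.2%. The summed level was 176, 401 and 362 TPM in the 3 groups.

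**Figure D2:**
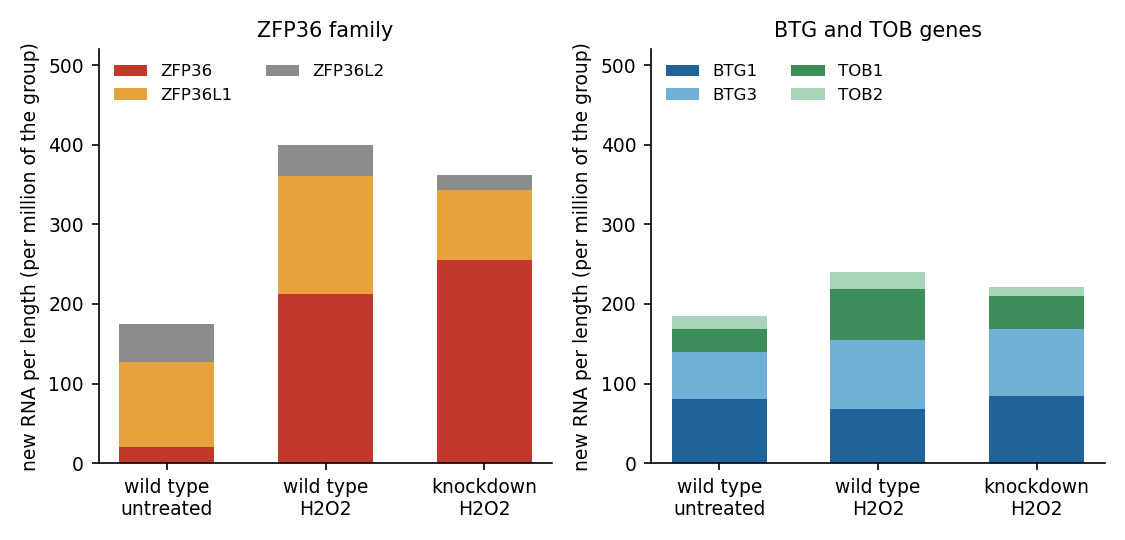
Summed level of newly made RNA of the 3 ZFP36 paralogues and of the 4 BTG and TOB genes (y axis, TPM; stacked bars start at 0, 1 pooled value per group and gene, no error shown). The ZFP36 part of the left bars grows from 20.7 to 212 and 255 TPM, while the BTG and TOB total stands at 185, 240 and 221.

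The 3' UTRs of these genes were searched for the pentamer AUUUA, the core of AU-rich elements, and for the longer UUAUUUAUU that ZFP36 proteins prefer, on the transcript strand, since the family's own messages can be targets of its proteins. The windows of 30 bases with the most pentamers are shown for the 3 paralogues, from GENCODE 29 transcripts, with each AUUUA in capitals, at chr19:39409188-39409217 (plus strand), chr14:68788345-68788374 and chr2:43223452-43223481 (both minus strand, GRCh38).
ZFP36: ccuuuAUUUAugacgacuuuAUUUAuucua
ZFP36L1: cuuAUUUAacuuaucaaaacguAUUUAuug
ZFP36L2: ugaaaacuAUUUAacuuAUUUAuuaucuug
The pentamer occurred 5 times in the 713 bases of the ZFP36 3' UTR, 8 times in the 1871 bases of ZFP36L1 and 5 times in the 1917 bases of ZFP36L2, and each held the longer motif once. Among 13773 tested protein-coding genes, 67.6% had the pentamer and 8.26% the longer motif. The pentamer density in ZFP36, 7.01 per kilobase, was above that of 96.4% of them. Those in BTG3, TOB1 and ZFP36L1 were above 96.1%, 92.0% and 86.7%, and those in ZFP36L2, BTG1 and TOB2 above 67.6%, 46.4% and 42.2%. TOB1, BTG3, BTG1 and TOB2 held the pentamer 4, 3, 5 and 3 times and not the longer motif, and neither was found in ZC3H12A and ARID5A. A match is a run of letters, and no binding was measured here.

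ZC3H12A and ARID5A, whose products act on overlapping messages in opposite ways, both rose after H2O2 and moved apart in the knockdown. ZC3H12A lies on chromosome 1 from 37474552 to 37484379 (plus strand). It had mean counts of 620.5, 1235.5 and 781.5 in untreated, H2O2-treated and knockdown cells, highest in H2O2-treated wild type cells. It rose by 0.70 ± 0.22 after H2O2 (adjusted p = 0.00617) and fell by 0.37 ± 0.11 in the knockdown (adjusted p = 0.00507), or by 0.66 in the authors' deposited table.

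ARID5A lies on chromosome 2 from 96536743 to 96552638 (plus strand). Its mean counts were 888.5, 2262.5 and 7470.5 in untreated, H2O2-treated and knockdown cells, lowest in untreated and highest in knockdown cells. It rose by 1.06 ± 0.22 after H2O2, a 2.08-fold change (adjusted p = 1.34e-05). In the knockdown it rose by 2.01 ± 0.09, a 4.04-fold change (adjusted p = 4.06e-117), and 13 of 11556 genes with at least 50 mean counts rose more. The changes of ARID5A and ZC3H12A after H2O2 differed by 0.36 ± 0.31, with an interval from -0.25 to 0.96 that includes 0. In the knockdown they differed by 2.38 ± 0.14 (95% interval 2.10 to 2.66).

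**Figure D3:**
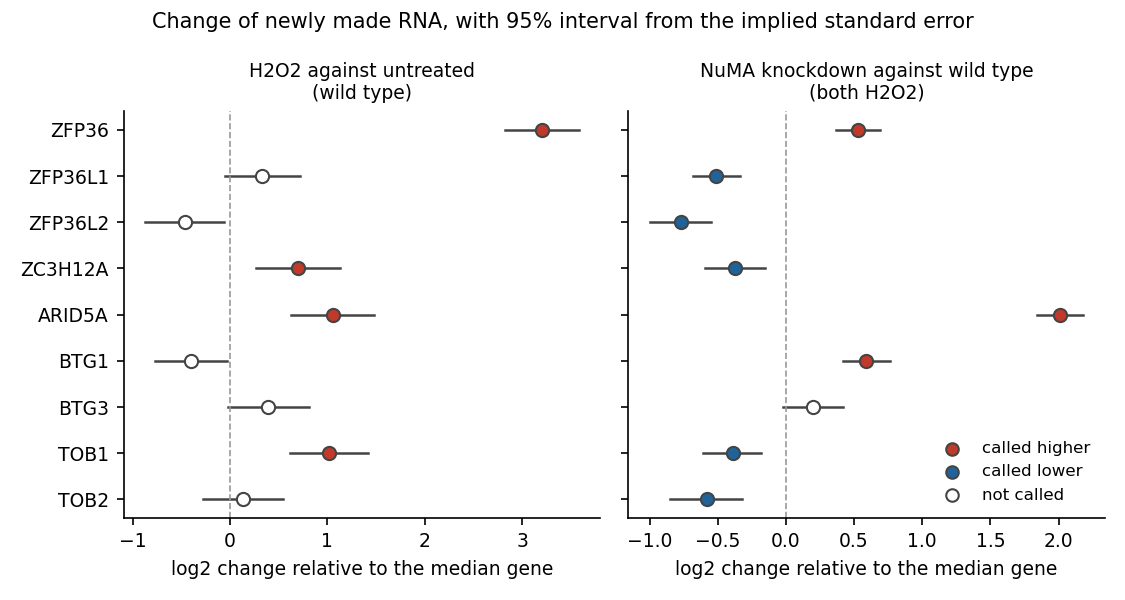
Change of each gene relative to the median gene (x axis, log2) in the 2 comparisons; points are the centred changes, lines the 95% intervals from the implied standard error, and the fill shows the call. ZFP36 at 3.20 and ARID5A at 2.01 are the rightmost points of the left and right panels, and ZFP36L2 at -0.77 is the leftmost of the right panel.

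Of BTG1, BTG3, TOB1 and TOB2, TOB1 was called after H2O2. TOB1, on chromosome 17 from 50862223 to 50867978 (minus strand), had mean counts of 543, 1349.5 and 840.5 in untreated, H2O2-treated and knockdown cells. It rose by 1.02 ± 0.21 after H2O2, a 2.03-fold change (adjusted p = 7.86e-06), and fell by 0.39 ± 0.11 in the knockdown (adjusted p = 0.00203), or by 0.68 in the authors' deposited table. Its paralogue TOB2, on chromosome 22 from 41433492 to 41447023 (minus strand), had mean counts of 558, 746 and 407, lowest in the knockdown. TOB2 changed by 0.13 ± 0.21 after H2O2, less than its error (adjusted p = 0.695), and fell by 0.58 ± 0.14 in the knockdown (adjusted p = 0.000122). After H2O2 the change of TOB1 exceeded that of TOB2 by 0.89 ± 0.29 (0.32 to 1.47), and in the knockdown by 0.19 ± 0.17, an interval from -0.15 to 0.53 that includes 0. The antisense gene TOB1-AS1 overlaps 1300 bases of the TOB1 locus and had mean counts of 28, 76.5 and 49.5. In the authors' deposited table its changes were 1.42 and -0.62, against 1.31 and -0.68 for TOB1. Reads of the pair cannot be told apart without the strand setting, and their part in the TOB1 values was not tested.

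BTG1, an antiproliferative gene on chromosome 12 from 92140278 to 92145897 (minus strand), was not called after H2O2 and rose in the knockdown. Its mean counts of 2611.5, 2414.5 and 2967.5 in untreated, H2O2-treated and knockdown cells were among the steadiest of the 9. The change after H2O2 was -0.40 ± 0.19 (adjusted p = 0.0885), and 0.01 relative to genes of similar span. In the knockdown BTG1 rose by 0.59 ± 0.09 (adjusted p = 4.02e-10), or by 0.30 in the authors' deposited table (adjusted p = 0.00299). The change of BTG1 lay below that of TOB1 after H2O2, by -1.42 ± 0.28 (-1.97 to -0.88), and above it in the knockdown, by 0.98 ± 0.14 (0.70 to 1.26).

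BTG3, on chromosome 21 from 17593653 to 17612947 (minus strand), had mean counts of 636.5, 1024.5 and 962, lowest in untreated cells. Its change of 0.39 ± 0.21 after H2O2 was not called (adjusted p = 0.146), although the authors' deposited table had 0.69 with an adjusted p of 0.00503. In the knockdown it was 0.20 ± 0.11 (adjusted p = 0.192), and -0.09 without centring, so no direction is given. The processed pseudogenes BTG3P1 and BTG1P1 were at 0 mean counts in all groups, and TOB2P1 had 7, 13.5 and 10. Per length, BTG1 gave 43.3%, 28.2% and 38.4% of the new RNA of the 4 genes in the 3 groups, and TOB1 15.3%, 26.7% and 18.4%.

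The promoters of the members were compared because the genes did not move together. RefSeq windows (GRCh38.p14) from 250 bases before to 50 after a gene's start were given for 8 of the 9, with 11 windows in all. They were searched on both strands for the CArG box bound by SRF, an NF-kB site and the TATA box, each by name, and for the AP-1 site TGANTCA, the cyclic AMP response element TGACGTCA, its core TGACG, which lies within it, the ETS core CCGGAA and TATAA, a shorter form that overlaps the TATA box. The stretches from 60 bases before to 10 after the start are shown for ZFP36, ZC3H12A, BTG1 and ARID5A, with matches in capitals, at chr19:39406787-39406856 and chr1:37474520-37474589 (plus strand), chr12:92145837-92145906 (minus strand) and, for the first of 2 ARID5A starts, chr2:96536692-96536761 (plus strand).
ZFP36: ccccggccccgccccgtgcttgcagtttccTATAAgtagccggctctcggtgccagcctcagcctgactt
ZC3H12A: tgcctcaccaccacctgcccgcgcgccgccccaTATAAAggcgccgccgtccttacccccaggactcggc
BTG1: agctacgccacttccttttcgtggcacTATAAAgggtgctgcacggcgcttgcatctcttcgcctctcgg
ARID5A: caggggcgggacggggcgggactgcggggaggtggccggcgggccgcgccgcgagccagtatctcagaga
TATAA began 30 bases before the start in ZFP36, 27 in ZC3H12A and 33 in BTG1, and 20.4% of 35116 promoters hold it. The ZC3H12A and BTG1 matches were also full TATA boxes, held by 13.7%. No TATAA was found in the windows of ARID5A, ZFP36L1, BTG3, TOB1 and TOB2. No CArG box, AP-1 site or NF-kB site was found in any of the 11 windows, against 1.29%, 7.71% and 5.91% of all promoters. At shares this low, no match in 11 windows is a common outcome. Sequence outside the windows was not searched, and the control of these genes was not tested.

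The second of 2 starts of ZFP36L1 held the full cyclic AMP response element, found in 1.85% of promoters, 52 bases before the start. It is shown for the 70 bases before that start, at chr14:68793417-68793486 (minus strand).
ZFP36L1: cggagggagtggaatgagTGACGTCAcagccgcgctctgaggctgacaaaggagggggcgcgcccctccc
The core TGACG alone, held by 24.6% of promoters, was found in windows of ZC3H12A, ARID5A, BTG1, TOB1 and the other ZFP36L1 start, and the ETS core, held by 17.2%, in that of BTG3. ZFP36L2 had no window.

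The other genes of mRNA decay were looked at in 9 lists holding 93 genes beside the members, of which 91 were tested. After H2O2, 14 were called higher and 8 lower, and in the knockdown 9 higher and 28 lower. The deposited table alone had 28 higher and 8 lower after H2O2 and 9 higher and 42 lower in the knockdown, and the centred test alone had 14 and 19, then 20 and 28. Calls by both tests took in 16.6% (higher) and 9.6% (lower) of all tested genes after H2O2, then 6.81% and 14.5% in the knockdown. Over all genes the deposited table alone had 26.7% higher and 9.6% lower after H2O2 and 6.81% and 28.0% in the knockdown. The centred test alone had 16.6% and 15.8% of all genes, then 15.5% and 14.5%. The median change of these genes was -0.02 after H2O2 and -0.06 in the knockdown. No test was made over any list.

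Among the other family members, BTG2, a p53 target that also binds the CCR4-NOT deadenylase, had mean counts of 197.5, 478 and 570 and rose by 0.98 ± 0.23 after H2O2 (adjusted p = 0.000226). It was the only one of 6 tested to be called, where 16.6% of all tested genes were called higher and 9.6% lower. In the knockdown BTG2 stood at 0.54 ± 0.14 and ARID5B, the paralogue of ARID5A, at 0.28 ± 0.09. Both passed the centred test (adjusted p = 0.000695 and 0.00928) but not the authors' deposited one, so none of the 6 was called. At an unadjusted p under 0.05, 3 were higher by the centred test and 1 lower by the deposited test. ARID5B had mean counts of 1631, 2662.5 and 2643, lowest in untreated cells. ZC3H12C and N4BP1 were not called in either comparison, with mean counts between 199 and 467, and ZC3H12B, ZC3H12D and BTG4 had at most 56.5.

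Of 11 CCR4-NOT subunits, 1 was called after H2O2, the deadenylase subunit CNOT6, with a rise of 0.79 ± 0.22 (adjusted p = 0.00149), while 2 were lower by the centred test alone. In the knockdown 2 were called lower, against 5 in the authors' deposited table. CNOT1, the scaffold of the complex, went from 687.5 to 187.5 mean counts and fell by 1.58 ± 0.17 (adjusted p = 2.25e-18), and CNOT6 fell by 0.58 ± 0.15. CNOT7 and CNOT8, the subunits that BTG and TOB proteins bind, had knockdown changes of -0.16 ± 0.11 and 0.08 ± 0.14 and were not called. The list median was -0.14 after H2O2 and -0.04 in the knockdown.

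Of 8 other poly(A) tail factors, PABPC1, the main cytoplasmic poly(A)-binding protein, and PAIP1, its partner in translation, rose after H2O2 by 0.49 ± 0.20 and 0.52 ± 0.21 (adjusted p = 0.0476 and 0.0425). Both calls were lost with either other minimum count for the median gene, at adjusted p from 0.0553 to 0.0799. PABPC1 was also higher in the knockdown than in H2O2-treated wild type cells, by 0.68 ± 0.08, while PARN, a poly(A)-specific ribonuclease, was lower by 0.55 ± 0.14. Of 10 genes of decapping and 5' to 3' decay, 4 fell in the knockdown: PATL1 by 1.13 ± 0.17, EDC4 by 0.68 ± 0.20, EIF4ENIF1 by 0.64 ± 0.19 and DCP2, the decapping enzyme, by 0.54 ± 0.17. DDX6, a helicase that links deadenylation to decapping, rose by 0.58 ± 0.12 (adjusted p = 4.89e-06). Among all tested genes 6.81% were called higher and 14.5% lower in the knockdown. After H2O2 none of the 10 was called, where 16.6% of all tested genes were called higher and 9.6% lower. At an unadjusted p under 0.05, 1 was lower by the centred test, and 3 were higher and 1 lower by the deposited test. DCP1B at -0.86 ± 0.27 passed the centred test (adjusted p = 0.00661) but not the deposited one.

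The exosome, which degrades RNA from the 3' end, had the lowest list median after H2O2, -0.60 over 14 genes with its Ski partners. EXOSC4 went from 1063.5 to 208.5 mean counts and fell by 2.64 ± 0.22 (adjusted p = 7.78e-30), EXOSC3 fell by 1.63 ± 0.24, EXOSC7 by 0.93 ± 0.22 and SKIV2L, the Ski helicase, by 0.84 ± 0.23. Called lower were 4 of the 14, and 9.6% of all tested genes. The centred test alone had 8 of the 14 lower, and 15.8% of all tested genes. In the knockdown EXOSC4 and EXOSC1 rose, by 0.96 ± 0.18 and 0.77 ± 0.14, while EXOSC10, EXOSC9, TTC37, EXOSC8 and EXOSC2 fell, with changes from -0.86 to -0.40. Of 10 other proteins that bind AU-rich or other 3' UTR sites, ELAVL1, which stabilises AU-rich mRNAs, rose after H2O2 by 0.72 ± 0.21 and RC3H2, a roquin, by 0.55 ± 0.22 (adjusted p = 0.00235 and 0.0396). The call of RC3H2 was lost with either other minimum count (adjusted p = 0.0514 and 0.0649). In the knockdown 5 of them fell, against 9 in the authors' deposited table, and the list median was -0.22. Of all tested genes 6.81% were called higher and 14.5% lower there, and the deposited table alone had 28.0% lower. RC3H2 fell by 0.64 ± 0.12 and HNRNPD, the decay factor AUF1, by 0.56 ± 0.08, while PUM2 fell by 0.35 ± 0.12, a call lost relative to genes of similar span (-0.14), and KHSRP by 0.24 ± 0.09.

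**Figure D4:**
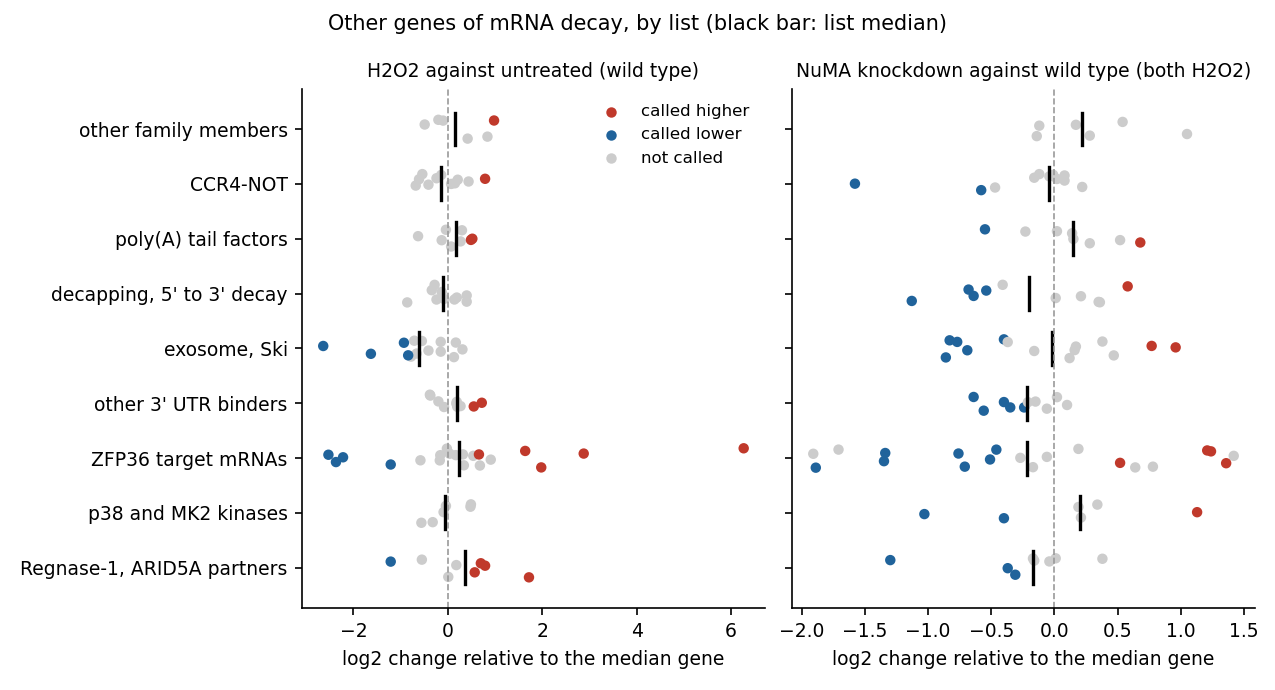
Change of the other mRNA decay genes relative to the median gene (x axis, log2) in the 2 comparisons, 1 row per list and 1 point per gene, coloured by call, with the list median as a black bar; the last row includes ZC3H12A. EXOSC4 at -2.64 is the leftmost point of the left panel, and the ZFP36 target mRNAs reach from -2.53 to 6.27 there.

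Messages known as targets of ZFP36 went in both directions after H2O2, with 5 of 20 called higher and 4 lower. Over all tested genes 16.6% were called higher and 9.6% lower. FOS, DUSP1, which encodes a phosphatase of MAP kinases, and the chemokine CXCL8 rose by 6.27 ± 0.22, 0.66 ± 0.20 and 1.64 ± 0.23, and CXCL2 rose from 7 to 37.5 mean counts. TNF, the best known ZFP36 target, was called at 1 against 17 mean counts, too few for a fold change. The cytokines IL6, IL1A, IL1B and CSF2 fell, IL6 from 314.5 to 166 mean counts and IL1B from 722.5 to 170. In the knockdown 4 rose, PIM1 by 1.36 ± 0.13, IER3 by 1.24 ± 0.08, PLK3 by 1.21 ± 0.09 and PLAUR by 0.52 ± 0.09. A further 7 fell, the largest falls above 50 mean counts being those of MYC, by 1.35 ± 0.12, and CXCL8, by 0.76 ± 0.14. Shares of all tested genes called in the knockdown were 6.81% higher and 14.5% lower. The list median was 0.24 after H2O2 and -0.22 in the knockdown. RNA made during the label is a measure mainly of synthesis, and how long these messages last was not measured.

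The kinases that phosphorylate ZFP36 belong to the p38 pathway. None of 6 tested was called after H2O2, where MAPKAPK2, which encodes MK2, stood at 0.48 ± 0.21 (adjusted p = 0.0651) and MAPKAPK3 at -0.56 ± 0.22 (adjusted p = 0.0355 after centring, not past the deposited test). At an unadjusted p under 0.05, 2 were higher and 1 lower by the centred test, and 2 higher by the deposited test. In the knockdown MAP2K3, a kinase that activates p38, went from 3455.5 to 6163.5 mean counts and rose by 1.13 ± 0.09 (adjusted p = 5.02e-37). MAP3K5, which encodes the oxidant-responsive kinase ASK1, fell by 1.03 ± 0.29 and MAPK14, which encodes p38 alpha, by 0.40 ± 0.13, a call lost relative to genes of similar span (-0.26). Of 8 partners and messages of Regnase-1 and ARID5A, a list that shares IL6 with the ZFP36 targets and includes ZC3H12A, 4 were called higher and 1 lower after H2O2, and 3 lower in the knockdown. NFKBIZ, whose mRNA Regnase-1 cuts, rose by 1.72 ± 0.21 after H2O2, STAT3 by 0.79 ± 0.21 and MALT1, the protease that cleaves Regnase-1, by 0.57 ± 0.23, a call lost with either other minimum count. In the knockdown TFRC, the transferrin receptor, fell by 1.30 ± 0.12 and NFKBIZ by 0.31 ± 0.12. STAT3, at -0.04 ± 0.09, and IL6, at -0.17 ± 0.25, were not called there.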

How the data were processed

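The authors deposited, for 60448 genes, a signal value per gene and group, a log2 fold change, a p-value and an adjusted p. Per the submitters' processing notes the tools were STAR 2.5, DESeq2 and DESeq, on hg38. The counter, strand setting and annotation are not given in the sources used here.

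The signal values, per the file headers, carry no unit. They behaved as mean count plus 1, divided by a length, times a constant (tolerance 1e-06). For 86.0% of genes that length was the GENCODE 29 mean transcript length. Otherwise the smallest fitting length was used, so counts of ZC3H12A, ZFP36L2 and, of the list and marker genes with printed counts, CNOT1, ARID5B and MITF are known only up to a common whole factor. The library totals share this limit, which leaves TPM and fold changes as they are. Single-library depth is unknown.

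Tests per library could not be run, and the fallback planned with them was used. The median change of 11602 genes (H2O2) or 11556 genes (knockdown) was subtracted from each fold change. The standard error was the fold change over the normal quantile of its p-value, or the median of 101 genes of similar count for 224 and 291 genes. A two-sided normal test with Benjamini-Hochberg adjustment over all tested genes followed (scipy 1.17.1). The steps were run on simulated data whose p-values came from the same normal formula. That run cannot show whether the deposited p-values follow it. From 2 libraries a group, these errors are themselves uncertain.

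All 9 regulators are named. Of each list, the 2 largest called rises and falls with at least 50 mean counts are named, or all called where there were 5 or fewer. The values of 1 list gene are not reported here. CNOT7, CNOT8, DCP1B, MAPKAPK2, MAPKAPK3 and other list genes beyond that rule were chosen after their values were seen. Members, lists and tests were chosen with earlier results of these data known. The tables of significant genes were not used.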

Additional observations from a re-analysis of the deposited data

How the results depend on the processing

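Of the calls of the 9 genes, 7 other settings and 1 added after seeing the data (changes relative to genes of similar gene span) changed those of ZFP36L1 and BTG3 after H2O2. Without centring, ZFP36L1 stood at 0.63 and BTG3 at 0.69, both past the threshold, and with the span trend removed ZFP36L1 stood at 0.67. Signs changed for BTG1 after H2O2, at 0.01 with the span trend removed, and for BTG3 in the knockdown, at -0.09 without centring and at -0.00096 when scaled by total counts of genes with a settled length, none of them called. Without centring, 28 of the 91 tested list genes were called higher after H2O2, in place of 14, and with no minimum count or one of 200 for the median gene 10, the calls of MALT1, PABPC1, PAIP1 and RC3H2 being lost. The list median without centring was 0.27 after H2O2 and -0.35 in the knockdown. Scaled by either total, it was -0.23 and -0.26 in the knockdown. Other settings of the minimum count, the standard error and the added count of 0.5 changed no call of the 9 genes. No paired analysis was possible because the files give 1 value per group, and for the same reason no library could be left out. Why these settings move the values was not tested.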

Other observations

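Genes with the most similar pair of changes were looked up for 5 of the regulators among 10742 protein-coding genes with at least 50 mean counts, by the distance between their changes on the log2 scale, over 3 groups of 2 libraries. Nearest to ARID5A was IGFBP2, with changes of 1.05 after H2O2 and 2.21 in the knockdown, then LRRN4CL and ODF3L1. Nearest to ZFP36 were PCDHB10, OSR2, which went from 65 to 666 and 861.5 mean counts, and INHBB, which went from 77 to 716 and 813.5. ZFP36 and ARID5A had few genes near them, with nearest distances of 0.127 and 0.194, whereas those of ZC3H12A (SLC29A2), BTG1 (SPRY4) and TOB1 (ZDHHC2) were 0.0076, 0.00734 and 0.0157. These are descriptions of 2 values per gene that share the H2O2-treated wild type libraries.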
